A study of Mus musculus with 18 samples.

Results

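The genes described here are 10 genes of the JAK2-STAT5 signalling pathway, chosen by name from a table of 23899 genes. Jak2, Stat5a and Stat5b are components of the pathway. Cish, Socs1, Socs2, Socs3, Osm, Pim1 and Pim2 are genes that the pathway is known to induce, and the 4 genes of the SOCS family among them (Cish, Socs1, Socs2 and Socs3) act back on it as inhibitors. Their RNA levels were measured by poly(A) RNA sequencing in a mouse leukaemia driven by MLL-AF9, the fusion of KMT2A and MLLT3. All groups carried Cas9 and grew in RPMI medium with 10 ng/ml mouse interleukin-3. There were 3 libraries in each of 6 groups: mock, a control guide against Renilla, and 4 guides against the jumonji and zinc finger domains of Jmjd1c, named e21.1, e20.1, e12.4 and e12.3. Jmjd1c encodes a nuclear protein of the jumonji family of histone demethylases. The labels leave out the domain each guide targets, the treatment of mock, and whether the 3 libraries of a group were grown apart; a p-value here therefore covers the spread between libraries only, which may be technical.

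Interleukin-3 binds a receptor made of its own alpha chain and a shared beta chain, and the kinase JAK2 on the beta chain then phosphorylates STAT5A and STAT5B. Phosphorylated STAT5 enters the nucleus and switches on genes for survival and growth together with genes that damp the signal, such as Cish and the Socs genes. RNA levels do not measure phosphorylation of JAK2 or STAT5, which these data do not hold. Because the libraries are bulk RNA, more cells that express a gene and more of its RNA per cell cannot be told apart.

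STAT5 binds the palindrome TTCNNNGAA, which reads the same on both strands. RefSeq (GRCm38.p6) start-site windows of 300 bases, from 250 before to 50 after the start, were found for 8 of the 10 genes, 11 windows in all. The motif was found in 2 of these 11 windows, those of Cish and Socs3, and in 8.29% of all 32817 windows. The Cish window holds it at 2 places, which 0.457% of all windows do. The stretches around the matches are shown because Cish and Socs3 are feedback inhibitors described below, with the motif in capitals.
Cish, chr9:107296654-107296683, plus strand: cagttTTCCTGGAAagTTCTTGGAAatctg
Socs3, chr11:117969501-117969530, minus strand: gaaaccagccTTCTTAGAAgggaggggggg
In Cish the matches begin at bases 1 and 12 after the RefSeq start, within exon 1 of the transcript Cish-201. In Socs3 the match begins 154 bases before the RefSeq start, outside annotated exons but within the span of the gene in GENCODE (117966079-117970047), which starts further upstream. These are matches of letters, and binding was not measured.

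Levels are given in FPKM, fragments per kilobase of transcript scaled to library size, a scale per length that allows genes to be compared. In the Renilla libraries Pim1, a survival kinase, was the highest of the 10 genes at 195 ± 14.1 FPKM (mean ± SD, n = 3). Cish (21.8 ± 4.8 FPKM), Stat5a (16.9 ± 1.39), Stat5b (15.9 ± 1.72) and Socs2 (15.0 ± 0.939) followed, and the ranges of neighbours in this order overlap. Jak2 stood at 11.0 ± 0.282 FPKM, and Osm (6.52 ± 0.519) and Pim2 (6.51 ± 0.487) did not differ beyond their spread. Socs1 (1.48 ± 0.191) and Socs3 (1.29 ± 0.314) were lowest, with overlapping ranges. With the Jmjd1c guides Cish kept rank 2 at 79.9 ± 19.2 FPKM (n = 12), while Osm moved from rank 7 to rank 5 in the order of means and Stat5a from rank 3 to rank 7. The plot of the levels in each library shows all 10 genes.

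**Figure D1:**
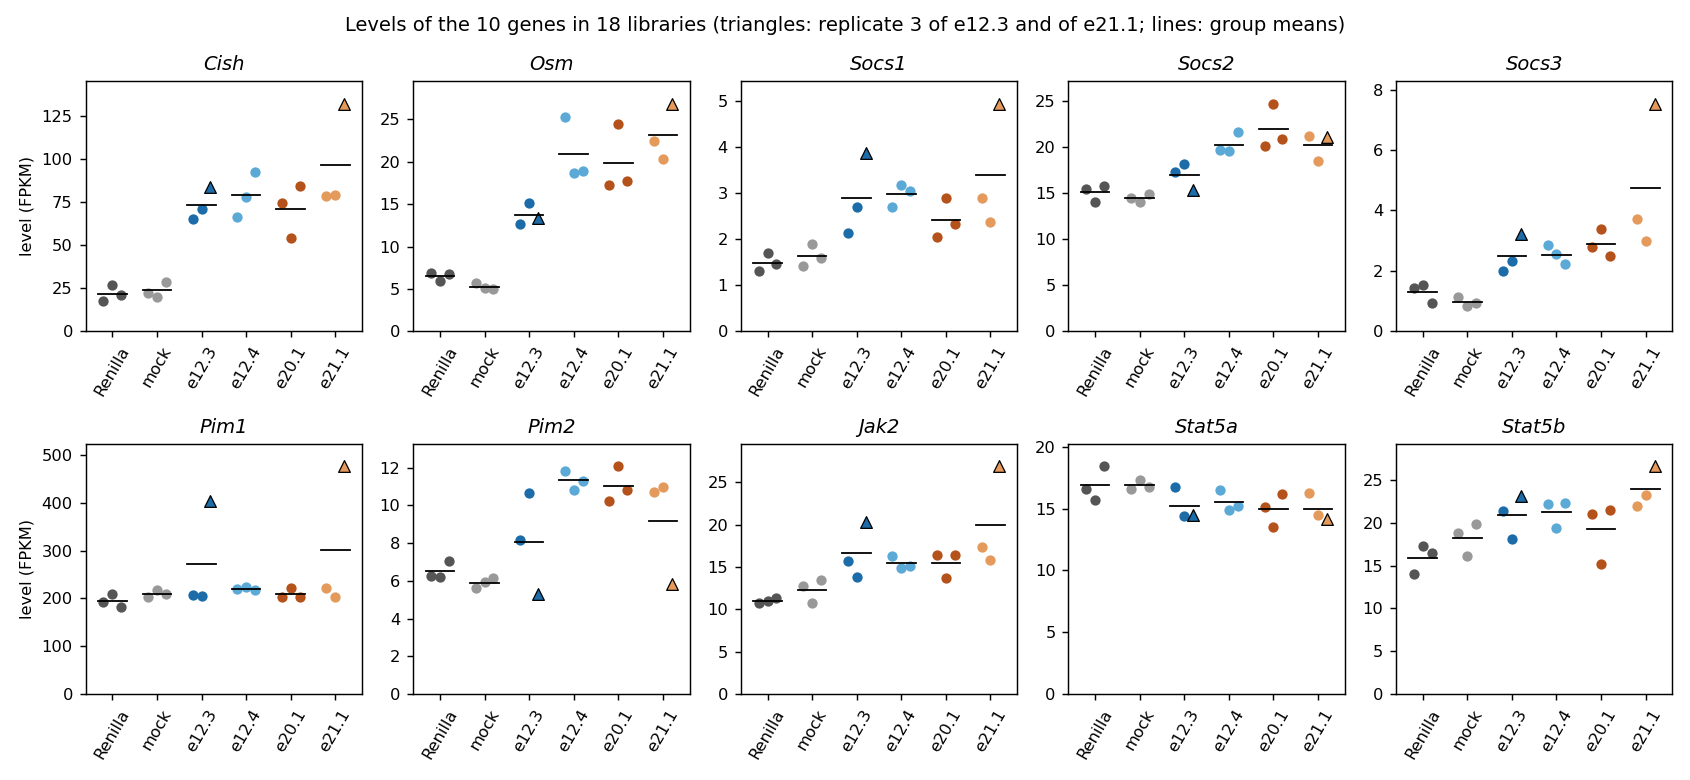
Level in FPKM (vertical axes, from 0) of each of the 10 genes in the 18 libraries, by group; points are libraries, lines are group means and triangles are replicate 3 of guide e12.3 and of guide e21.1. Cish lies at 54.2 to 132 FPKM in the guide libraries and at 17.6 to 28.7 FPKM in the 6 control libraries, and the triangles are the highest points of Pim1 and the lowest guide points of Pim2.

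The targeted gene Jmjd1c itself stood at 42.2 to 74.4 FPKM with the 4 guides and at 64.2, 85.4 and 85.4 FPKM with Renilla. This difference did not pass the test (log2 fold change -0.29, limma adjusted p = 0.19). With array quality weights Jmjd1c was called lower (-0.337, limma adjusted p = 0.00041), and also with each guide alone (0.0024 to 0.042). A transcript level does not measure editing. Libraries held an estimated 20.8 to 183 M reads (median 32.1), and all 10 genes passed the minimum mean of 1 FPKM. The lowest estimate for a single gene and library was 49 reads for Socs3, in mock replicate 3. All 5 leukocyte markers were present and erythroid markers were near 0 (summed level at most 0.803 FPKM). Summed over 8 monocyte markers, levels were 87.6 to 103 FPKM with Renilla, 93.0 to 99.7 with mock and 113 to 246 in the 12 guide libraries; 6 myeloid progenitor markers stood at 4541 to 5457, 4889 to 5157 and 1746 to 5059 FPKM, and 6 neutrophil markers at 99.5 to 184, 85.3 to 113 and 103 to 910 FPKM. The monocyte sums were separate between guides and controls, and the ranges of the progenitor and neutrophil sums overlap. The sums of the 5 leukocyte markers were also separate, at 1126 to 1201 FPKM with Renilla, 1105 to 1198 with mock and 1216 to 1647 with the guides. Tested gene by gene against Renilla, 4 of 6 progenitor markers were called lower, beside 3.21% of all genes. Of the tested markers, 3 of 5 for leukocytes, 3 of 6 for monocytes and 2 of 5 for neutrophils were called higher, beside 7.77%. The part of these markers in the results was not tested. Summed levels were 2.66 to 15.2 FPKM for 4 megakaryocyte markers, and at most 2.23 FPKM for T cell, 0.50 for B cell and 0.261 for stromal and epithelial markers in any group. The libraries of replicate 3 of guide e12.3 and of guide e21.1 stand apart from the other guide libraries, and results are given with and without them where that matters.

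Against Renilla, 7 of the 10 genes rose with the 4 Jmjd1c guides together and none fell (limma on log2(FPKM + 1), adjusted p under 0.05 over the 11550 genes tested); 7.77% of all tested genes were called higher and 3.21% lower. The 371 lower calls were 135 without Renilla replicate 1 and 195 without Renilla replicate 2, and array quality weights gave 2433 higher and 2431 lower calls. The genes called were Cish, Osm, Socs1, Socs2 and Socs3 among the targets and feedback inhibitors, and Jak2 and Stat5b among the components. The median log2 fold change was 0.64 over the 7 target and feedback genes and 0.39 over the 3 components, beside -0.03 over all tested genes. The count was 4 without Renilla replicate 1 or 3, 5 without Renilla replicate 2, and 8 without the libraries that stand apart.

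Cish, which encodes an SH2 protein that binds activated cytokine receptors and blocks STAT5 docking, was at 17.6, 27.0 and 20.9 FPKM in the Renilla libraries and at 22.4, 19.98 and 28.7 FPKM in mock. In the 12 guide libraries it ranged from 54.2 to 132 FPKM. All guide libraries lay above all controls. The log2 fold change against Renilla was 1.82 (SE 0.18, 95% interval 1.44 to 2.19, limma adjusted p = 4.9e-06), and the mean was 3.66-fold higher. The highest value, 132 FPKM, belongs to e21.1 replicate 3.

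Osm encodes oncostatin M, a cytokine of the interleukin-6 family whose gene is a STAT5 target in blood cells. It was at 6.86, 5.92 and 6.76 FPKM with Renilla, at 5.66, 5.07 and 4.95 FPKM in mock and at 12.7 to 26.9 FPKM with the guides. Guides and controls again did not overlap. The log2 fold change against Renilla was 1.41 (SE 0.12, limma adjusted p = 9.2e-07). The lowest 3 guide values, 12.7, 13.3 and 15.1 FPKM, are the 3 libraries of e12.3.

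The SOCS proteins inhibit JAK kinases or compete for receptor sites. Socs3 was at 1.42, 1.52 and 0.935 FPKM with Renilla and at 1.15, 0.828 and 0.921 FPKM in mock. With the guides it ranged from 1.99 to 7.53 FPKM, without overlap, and rose by 0.82 on the log2 scale (SE 0.18, limma adjusted p = 0.0071); its call was lost without Renilla replicate 3 (0.058). The top value, 7.53 FPKM, is e21.1 replicate 3, and the next is 3.72 FPKM.

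Socs1, the inhibitor that binds JAK kinases directly, was at 1.31, 1.69 and 1.45 FPKM with Renilla, at 1.42, 1.90 and 1.59 FPKM in mock and at 2.04 to 4.94 FPKM with the guides, without overlap. It rose by 0.64 (SE 0.16, limma adjusted p = 0.014), and the call was lost without Renilla replicate 1 (0.084) or 3 (0.059). For Socs1 and Socs3, at levels near 1 FPKM, the scale understates the change: the ratio of mean FPKM was 1.97 for Socs1 and 2.45 for Socs3.

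Socs2, an inhibitor of growth hormone signalling, changed less. It was at 15.4, 14.0 and 15.7 FPKM with Renilla, 14.4, 14.0 and 14.9 FPKM in mock and 15.3 to 24.6 FPKM with the guides. A single guide library, e12.3 replicate 3 at 15.3 FPKM, lay within the range of the controls. Socs2 rose by 0.37 (SE 0.08, limma adjusted p = 0.0045).

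Among the components, Jak2, the kinase of the shared beta chain, was at 10.7, 11.0 and 11.3 FPKM with Renilla, at 12.7, 10.7 and 13.4 FPKM in mock and at 13.7 to 26.9 FPKM with the guides. The lowest guide library lies just above the highest mock library. Jak2 rose against Renilla by 0.55 (SE 0.13, limma adjusted p = 0.012); without Renilla replicate 1 (0.063) or 2 (0.056) it was not called. Against mock the difference was 0.41 (95% interval 0.13 to 0.70) and did not pass the test (limma adjusted p = 0.066).

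Stat5a and Stat5b are neighbouring genes on chromosome 11, 8626 bases apart, whose proteins are closely alike. Stat5b was at 14.0, 17.3 and 16.5 FPKM with Renilla, at 18.8, 16.1 and 19.8 FPKM in mock and at 15.3 to 26.6 FPKM with the guides, and groups overlapped. It rose against Renilla by 0.39 (SE 0.11, limma adjusted p = 0.028). That call was lost without Renilla replicate 1 (0.18), 2 (0.051) or 3 (0.067), guide e12.4 (0.064) or guide e21.1 (0.085), and against mock the difference was 0.21 (95% interval -0.02 to 0.44, limma adjusted p = 0.29).

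Stat5a was at 16.6, 15.7 and 18.4 FPKM with Renilla, at 16.6, 17.3 and 16.8 FPKM in mock and at 13.6 to 16.8 FPKM with the guides. None of the 12 guide libraries was above the Renilla mean of 16.9 FPKM, but the groups overlap and the difference of -0.14 (95% interval -0.30 to 0.01) did not pass the test (limma adjusted p = 0.25). As a share of Stat5a plus Stat5b FPKM, Stat5b made up 45.8 to 52.4% with Renilla, 48.1 to 54.2% in mock and 53.0 to 65.2% with the guides. The summed level was 32.8 ± 2.17 FPKM with Renilla, 35.1 ± 1.61 in mock and 36.5 ± 3.23 with the guides. The transcripts share 31-base words (11.5% of those of Stat5a, 15.1% of those of Stat5b), so the split between them depends on how reads were assigned. Stat5a also overlaps Stat3 on the opposite strand.

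The ratio of Cish to Stat5a plus Stat5b was 0.575 to 0.819 in the 6 control libraries and 1.71 to 3.23 in the 12 guide libraries. The mean log2 level of the 7 target and feedback genes minus that of the 3 components was -0.65 to -0.40 in the controls and -0.21 to 0.47 with the guides. Both are descriptions of genes chosen by name and carry no test.

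**Figure D2:**
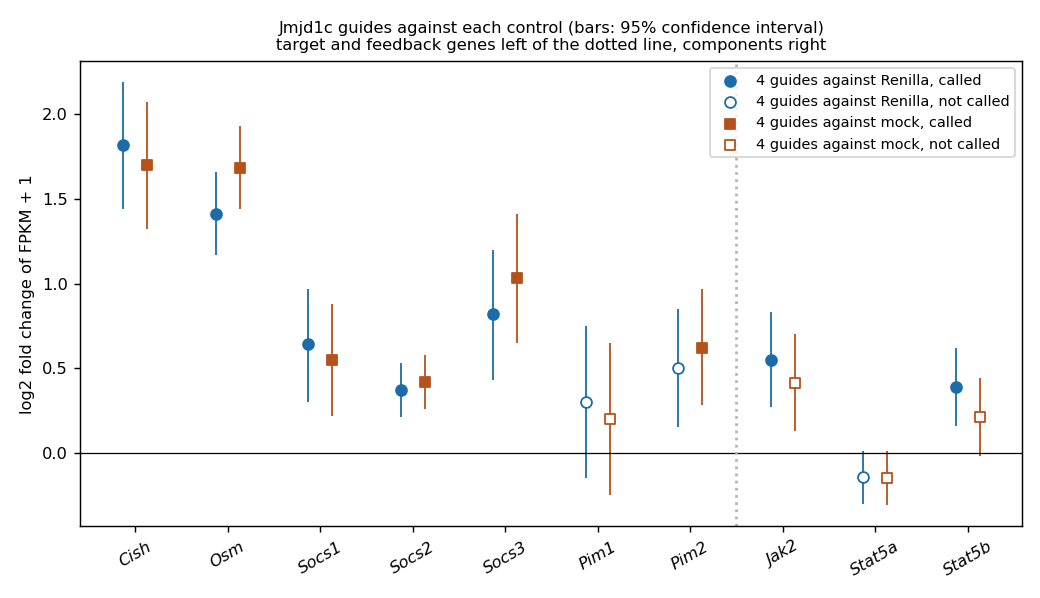
Log2 fold change of FPKM + 1 (vertical axis) of each of the 10 genes for the 4 Jmjd1c guides together against Renilla (circles) and against mock (squares), with 95% confidence intervals; filled symbols are called at an adjusted p under 0.05 and open ones are not. Cish (1.82 and 1.70) and Osm (1.41 and 1.68) lie highest, Stat5a lies below 0 in both, and Jak2 and Stat5b are filled against Renilla and open against mock.

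Against mock, with the same guide libraries, 6 of the 10 genes were called higher and none lower, beside 6.84% of all genes higher and 2.16% lower. These were Cish, with a log2 fold change of 1.70, Osm (1.68), Socs3 (1.03), Pim2 (0.62), Socs1 (0.55) and Socs2 (0.42). All 6 are target or feedback genes, and none of the 3 components was called. The calls of Socs1 (limma adjusted p = 0.037) and Pim2 (0.024) were lost without mock replicate 1 (0.19 and 0.12), 2 (0.08 and 0.10) or 3 (0.15 and 0.089), and that of Socs1 also without e12.4 replicate 2 (0.06) or 3 (0.058). Jak2 was called without e12.3 replicate 2 (0.047), e21.1 replicate 2 (0.037) or e21.1 replicate 3 (0.033), and without both libraries that stand apart (0.013). It was also called with the replicate number as a block (0.016) and with array quality weights (0.0018), which called Stat5b as well (0.037). The absence of components among the calls therefore depends on the model and on the libraries kept. Renilla and mock did not differ by this test in any gene (0.00% of all genes called). At an unadjusted limma p under 0.05 there were 127 genes, below the 578 expected by chance. None of the 10 genes was among those 127, with Osm lowest at 0.082. With fewer small p-values than chance gives, the absence of calls does not show that both controls are alike. Set against all 6 control libraries, 5 of the 10 genes (Cish, Osm, Socs1, Socs3 and Jak2) had every guide library above every control library, beside 4.92% of all genes.

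Pim1 and Pim2 encode related serine/threonine kinases that promote survival and protein synthesis, and their RNAs share no 31-base word. Pim1 was at 193, 209 and 181 FPKM with Renilla, 202, 217 and 208 FPKM in mock and 202 to 224 FPKM in 10 of the 12 guide libraries. In replicate 3 of guides e12.3 and e21.1 it stood at 403 and 476 FPKM. Over all 12 guide libraries Pim1 differed from Renilla by 0.30 (95% interval -0.15 to 0.75, limma adjusted p = 0.41) and was not called.

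Pim2 went the other way in the same libraries. It was at 6.28, 6.19 and 7.07 FPKM with Renilla, 5.62, 5.92 and 6.17 FPKM in mock and 8.17 to 12.1 FPKM in the same 10 guide libraries, all above the controls, but at 5.32 and 5.81 FPKM in replicate 3 of guides e12.3 and e21.1. With all 12 libraries the difference from Renilla was 0.50 (95% interval 0.15 to 0.85) and did not pass the test (limma adjusted p = 0.062). It passed without e12.3 replicate 3 (0.014), without e21.1 replicate 3 (0.0078), without guide e12.3 (0.012) or guide e21.1 (0.021), and without both libraries (log2 fold change 0.63, adjusted p = 6.6e-05). The ratio of Pim1 to Pim2 was 75.9 and 82.0 in those libraries, 18.4 to 25.5 in the other 10 guide libraries and 25.7 to 36.6 in the controls.

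In these libraries some of the other genes stood high as well. In replicate 3 of guides e12.3 and e21.1, Jak2 was at 20.4 and 26.9 FPKM, Socs1 at 3.87 and 4.94 and Cish at 83.4 and 132 FPKM. Jak2 and Socs1 were above the other 10 guide libraries in both. Summed progenitor markers were at 5059 and 3869 FPKM, against 1746 to 3123 in the other 10 guide libraries, and summed neutrophil markers at 910 and 634 FPKM, against 103 to 566. Summed megakaryocyte markers were at 2.74 and 2.66 FPKM, against 12.26 to 15.2. The part of these markers in the Pim1 and Pim2 levels was not tested. With an estimated 67.1 and 75.6 M reads, these libraries are also deeper than the median.

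**Figure D3:**
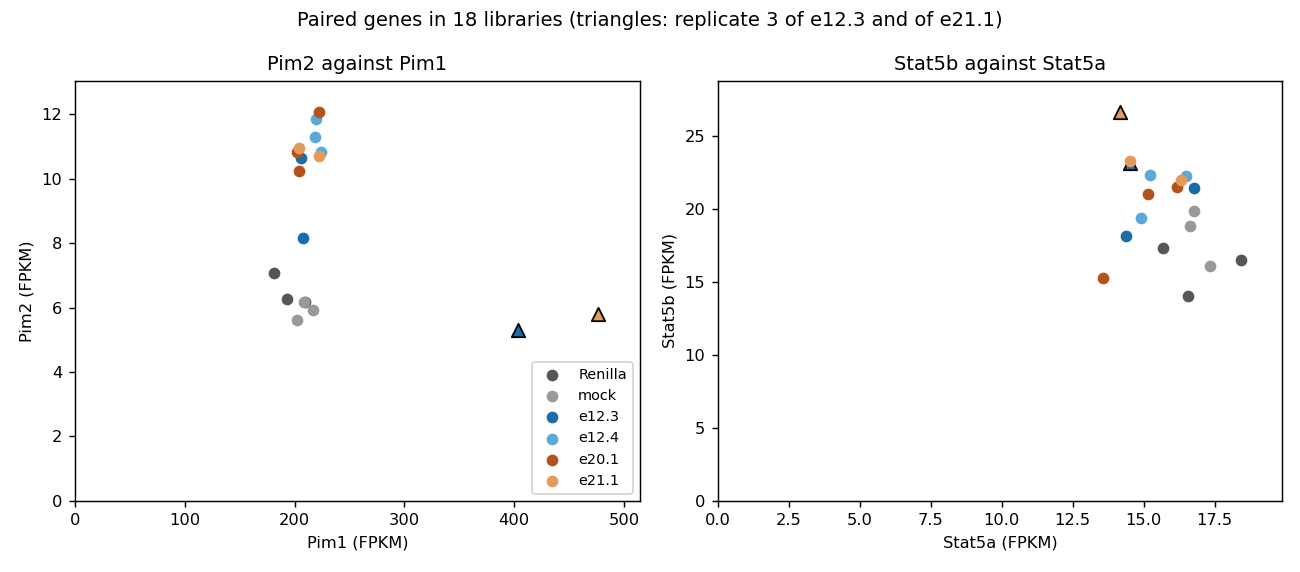
Pim2 against Pim1 (left) and Stat5b against Stat5a (right), in FPKM with both axes from 0, for the 18 libraries; colours are groups and triangles are replicate 3 of guide e12.3 and of guide e21.1. The triangles lie at 403 and 476 FPKM of Pim1 with 5.32 and 5.81 FPKM of Pim2, while the other 10 guide libraries lie at 202 to 224 and 8.17 to 12.1 FPKM.

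With each of the 4 guides alone, Cish and Osm rose against the Renilla libraries, which the 4 comparisons share. With e12.3, Cish (log2 fold change 1.71) and Osm (0.97) rose, 2 of the 10 genes called higher beside 3.03% of all genes. Pim2 was also called with e12.3 without the libraries that stand apart (limma adjusted p = 0.02), and Jak2 with the replicate number as a block (0.029). Array quality weights added Jak2, Stat5b, Socs2 and Pim2 with e12.3 (0.0021 to 0.041). With e12.4, Cish (1.82), Osm (1.54), Pim2 (0.72) and Socs2 (0.40) rose, 4 of 10 beside 5.57%. The e12.4 call of Pim2 (limma adjusted p = 0.049) was lost on leaving out any 1 of the 6 libraries in it (0.076 to 0.14), and that of Socs2 (0.016) without Renilla replicate 2 (0.078) or e12.4 replicate 3 (0.091). With the replicate number as a block, 7 of 10 were called with e12.4, adding Jak2 (limma adjusted p = 0.041), Stat5b (0.036) and Socs1 (0.026). With only e12.4 and Renilla in the model the count was also 7, adding Jak2 (0.013), Socs1 (0.012) and Socs3 (0.039).

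With e20.1, Cish (1.65), Osm (1.46) and Socs2 (0.51) rose, 3 of 10 beside 4.61% of all genes. With only e20.1 and Renilla in the model, Socs2 was not called (limma adjusted p = 0.07) and Pim2 was (0.023). With e21.1, Cish (2.07), Osm (1.68), Socs3 (1.26), Socs1 (0.78), Jak2 (0.77), Stat5b (0.56) and Socs2 (0.40) rose, 7 of 10 beside 7.06%. Without e21.1 replicate 3, which stands apart, Stat5b (limma adjusted p = 0.073), Socs1 (0.086) and Socs2 (0.051) were not called with e21.1, and Pim2 was (0.037). Stat5b was also lost without Renilla replicate 1 (0.076), Socs1 without Renilla replicate 1 (0.069) or 3 (0.055), and Socs2 without Renilla replicate 2 (0.068). With only e21.1 and Renilla in the model, 2 of the 7 calls, Cish and Osm, were left: Jak2 (limma adjusted p = 0.11), Stat5b (0.084), Socs1 (0.16), Socs2 (0.14) and Socs3 (0.084) did not pass.

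These unequal counts do not show that the guides differ. In the limma F test among the 4 guides no gene was called (0.00%), and for the 10 genes the adjusted p was 0.98 to 0.99. The 238 genes at an unadjusted p under 0.05 in this test were below the 578 expected by chance. Osm (unadjusted p = 0.0012), Socs2 (0.016) and Socs3 (0.04) had the lowest unadjusted values. Between the pairs that share the start of their names, e20.1 and e21.1 against e12.3 and e12.4, no gene was called (0.00%). Here 179 genes had an unadjusted limma p under 0.05, again below the 578 expected by chance. Osm differed by 0.32 (95% interval 0.10 to 0.54, unadjusted p = 0.0075, limma adjusted p = 1). The intervals of Socs3 (0.05 to 0.73) and Socs2 (0.03 to 0.32) also lay above 0, and those of the other genes of the 10 included 0. With fewer small p-values than chance gives, neither test shows that the guides are alike.

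**Figure D4:**
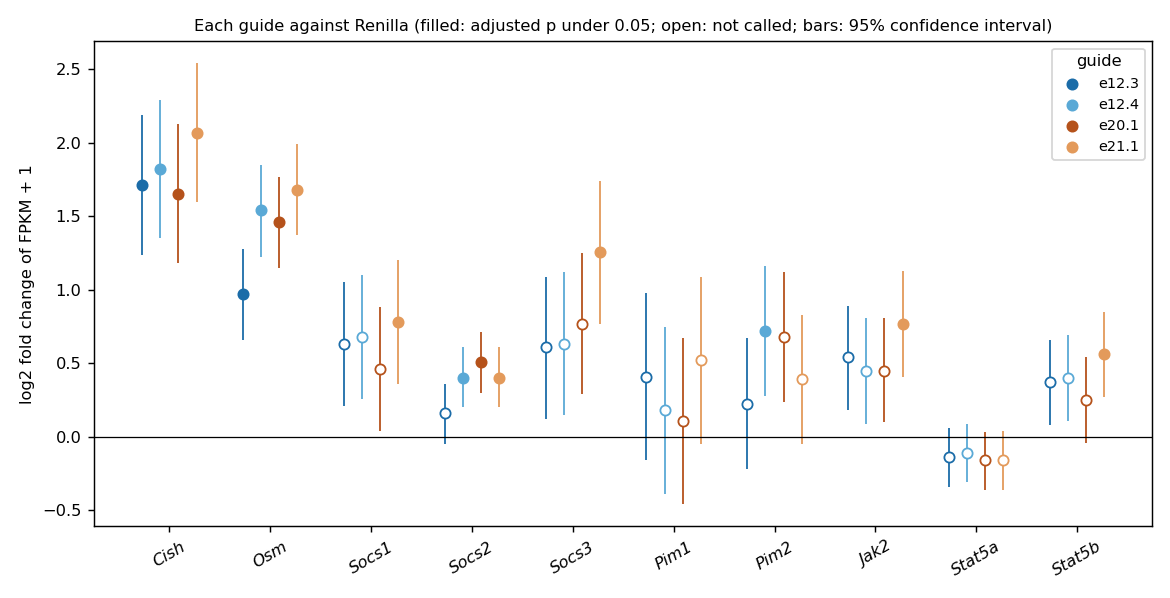
Log2 fold change of FPKM + 1 (vertical axis) of the 10 genes for each guide against Renilla, with 95% confidence intervals; filled points are called and open points are not. Cish (1.65 to 2.07) and Osm (0.97 to 1.68) are filled with all 4 guides, and Stat5a and Pim1 are open with all 4.

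Other genes of the pathway were taken from 4 lists drawn up from general knowledge, with 49 tested genes in all. The receptor list held 14 chains for cytokines that signal to STAT5 through JAK2 or other JAKs. Of these, 7 were tested and 4 of the tested chains were called higher against Renilla (median log2 fold change 0.47), beside 7.77% of all genes. Csf2rb, the shared beta chain for interleukin-3, interleukin-5 and GM-CSF, rose from 46.5 ± 4.82 to 109 ± 20.6 FPKM (1.20, limma adjusted p = 2.7e-05), and Csf2rb2, the mouse beta chain specific to interleukin-3, from 4.93 ± 0.976 to 17.5 ± 3.83 FPKM (1.63, adjusted p = 1.2e-05). Csf2rb and Csf2rb2 share 18.8 and 28.6% of their 31-base words, so reads can be split between them.

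Il2ra, the interleukin-2 receptor alpha chain and itself a STAT5 target, rose from 0.246 ± 0.0726 to 1.82 ± 0.508 FPKM (1.16, limma adjusted p = 2.2e-05). At its Renilla level Il2ra is under the minimum of 1 FPKM and was tested only because its guide libraries are high, so its call is no support for the count. Il2rg, the common gamma chain, rose by 0.47 (limma adjusted p = 0.018); it was not called without Renilla replicate 1 (0.089), 2 (0.058) or 3 (0.063) or guide e12.4 (0.094). Against mock 4 of the 7 tested chains, Il2ra included, were called higher, beside 6.84% of all genes.

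Of the 8 other JAKs and STATs, 2 were called higher (median 0.28), beside 7.77% of all genes. Jak1, the kinase that pairs with many cytokine receptors, rose by 0.31 (limma adjusted p = 0.0069) and Stat6, the interleukin-4 transcription factor, by 0.43 (0.0077; without Renilla replicate 1, 0.064). Against mock none of the 8 was called. Of the 18 other negative regulators, 2 were higher and 1 lower, with a median of -0.01, beside 7.77% higher and 3.21% lower of all genes; these counts are near the background and are no result about the list. Ptprc, the phosphatase CD45, rose by 0.37 (limma adjusted p = 0.0099; 0.074 without Renilla replicate 1) and Ptpn6, the phosphatase SHP-1, by 0.37 (0.029; 0.19 without Renilla replicate 2, 0.13 without 3, 0.097 without guide e12.4 and 0.06 without guide e20.1). Ptpn11, the phosphatase SHP-2, which promotes RAS signalling, fell by 0.27 (0.031; 0.13, 0.063 and 0.11 without Renilla replicate 1, 2 or 3, 0.05 without e12.4 replicate 3 and 0.075 without guide e12.4).

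Of 20 other genes listed as STAT5 targets, 16 were tested and 7 were called higher against Renilla and 7 against mock (median 0.16 against Renilla), beside 7.77 and 6.84% of all genes. Id2, an inhibitor of basic helix-loop-helix factors, rose from 0.731 ± 0.215 to 3.29 ± 0.598 FPKM (1.30, limma adjusted p = 6.2e-07); like Il2ra it is under 1 FPKM in Renilla, was tested only through its guide libraries and is no support for the count. Bcl2, the survival protein, rose from 5.12 ± 0.329 to 8.23 ± 0.89 FPKM (0.59, limma adjusted p = 0.00025) and Ccnd3, the G1 cyclin D3, from 149 ± 4.71 to 212 ± 12.1 FPKM (0.51, adjusted p = 4.8e-05). Ccl3, a chemokine, rose most among the tested genes of this list (2.75). Il2ra and Id2 are low in Renilla, where the log2(FPKM + 1) scale understates a change.

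**Figure D5:**
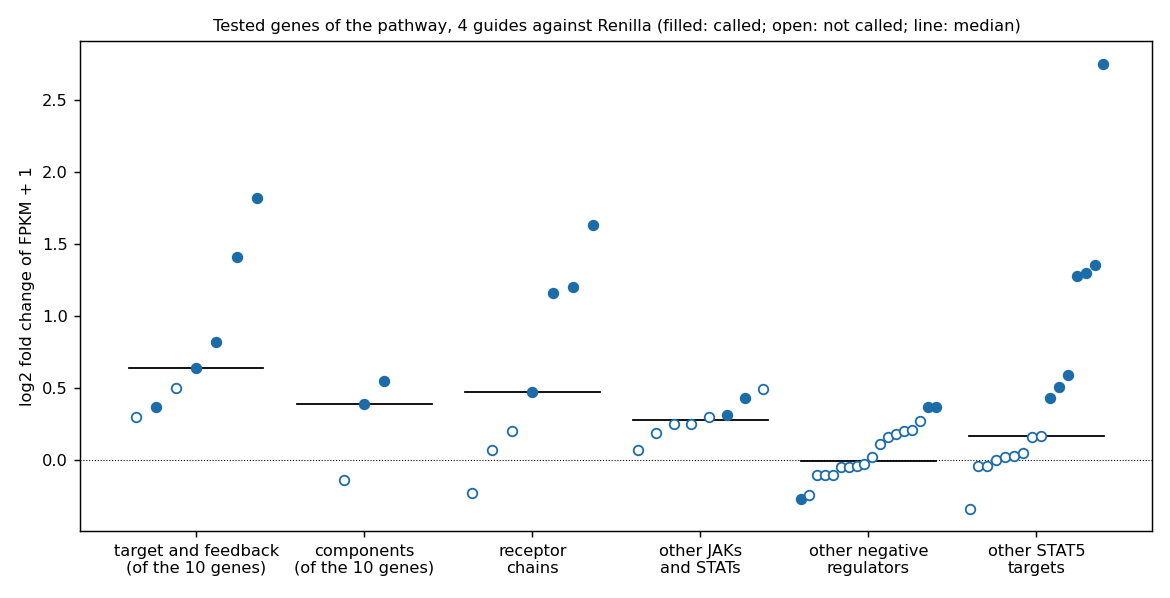
Log2 fold change of FPKM + 1 (vertical axis) of tested pathway genes, 4 Jmjd1c guides against Renilla, by list; filled points are called, open points are not and lines are list medians. The 7 target and feedback genes have a median of 0.64 and the 18 other negative regulators a median of -0.01.

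The genes whose levels ran most like those of each of the 10 genes were ranked by Pearson's r of log2(FPKM + 1) over the 18 libraries, among genes averaging 5 FPKM or more. These libraries share the difference between guides and controls, and r is a description. For Cish they were Tmem154 (r = 0.985), Rassf4 (0.981), Myadm (0.975), Cd300lb (0.971) and Nov (0.971). For Osm they were Klf6 (0.986), Egr1 (0.985), Cd52 (0.982), Selplg (0.975) and Gng2 (0.973), with the immediate-early factors Klf6 and Egr1 first. For Pim2 they were Cd200r4 (0.984), Degs1 (0.980), S100a4 (0.977), Slc2a6 (0.971) and Cd74 (0.968), and for Pim1 Agrn (0.975), Scpep1 (0.970), Xbp1 (0.968), Mxi1 (0.957) and Mgst2 (0.956). Stat5a had the weakest closest match, Alg6 at 0.885, while for Jak2, Stat5b and the Socs genes the closest were Vdr (0.981), Pik3cd (0.942), Slc2a3 (0.958, Socs1), Itgb7 (0.933, Socs2) and Haao (0.968, Socs3).

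Among the 10 genes themselves, Jak2 and Stat5b ran together over the 12 guide libraries (r = 0.78) and over the 10 without those that stand apart (0.81). This was not particular to that pair over the 10: Jak2 and Stat5a had r = 0.78, and Stat5a and Stat5b 0.69. Over the 12, these were -0.08 and 0.30. Pim1 and Pim2 had r = -0.89 over the 12 and 0.42 over the 10. Cish and Osm, both above all controls in all guide libraries, had r = 0.90 over the 18 libraries but 0.20 within the 12 guide libraries. Jak2 and Socs1 had r = 0.71 over the 12 and -0.39 over the 10, so their relation in the guide libraries rests on replicate 3 of guides e12.3 and e21.1.

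The genes lie at these places in GRCm38: Cish on chromosome 9 (107296026-107302784), Socs1 on 16 (10782240-10785536), Socs2 on 10 (95385362-95417180), Socs3 on 11 (117966079-117970047), Osm on 11 (4236420-4241026), Pim1 on 17 (29490753-29496112), Pim2 on X (7878262-7883432), Jak2 on 19 (29251828-29313080), Stat5a on 11 (100859351-100885169) and Stat5b on 11 (100780731-100850724). The opposite strand within Cish holds the pseudogene Gm17040 (mean 0.691 FPKM) and Gm17041, and that within Pim1 holds Gm26885. The library kit marks strand; whether counting used it is not given in the sources used here.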

How the data were processed

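The deposited values are FPKM that the authors computed, in a table of 23899 genes and 18 libraries; 15 separate tables differ from it by at most 3.3e-06 FPKM and were used only for that check. Per the submitters' processing notes the tools were bcl2fastq 2.22.0.422, Salmon 0.13.0, R 3.5.3 and DESeq2 1.22.1 on mm10; no settings are named there. Per the labels' protocols, TRIzol RNA was poly(A)-selected and made into libraries with a directional kit. FPKM are not counts, so no count test was run; log2(FPKM + 1) of 11550 genes averaging 1 FPKM or more went into limma-trend (R 4.3.3, limma 3.58.1), as 1 model of 6 group means, with Benjamini-Hochberg adjustment over all of them and a threshold of 0.05. The 4 guides together are weighted equally. The depth estimate rests on the steps of length times FPKM in 1473 genes of at least 2000 bases (81.0 to 87.0% of low values within 0.1 of a whole read, where an even spread gives 20%). Genes were placed with GENCODE vM21, which holds 98.92% of the symbols.

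The 10 genes, the lists and the tests were chosen with earlier results of these data known, and no pattern already seen there is independent support. The 10 genes and Jmjd1c were named whatever their values; from each pathway list up to 4 called genes with the smallest p, and for each of the 10 the 5 genes most like it. The T cell, B cell, megakaryocyte and stromal marker lists were measured as checks of the labelled cell type. Alternatives were pseudocount 0.1, no filter, a filter of 5 FPKM in 3 libraries, only the groups compared, a replicate block, upper-quartile scaling, array quality weights, Renilla and mock together, and each library or guide left out. Replicate numbers were taken to pair groups where all 3 same-number correlations of deviations from the group means exceeded 0.1, a pairing taken from the data and not from the labels: this held for Renilla with e12.4 (0.24 to 0.33) and with mock (0.16 to 0.29), and not for Renilla with e12.3, e20.1 or e21.1. The fit was tested on simulated data. Figures were drawn with matplotlib 3.10.9 in Python 3.11.15.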

Additional observations from a re-analysis of the deposited data

How the results depend on the processing

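No called result changed direction under any alternative run. With array quality weights the calls were 4864 genes for the 4 guides against Renilla, 2027 (e12.3, with 6 of the 10 genes called), 3908 (e12.4, 8), 3393 (e20.1, 7) and 2641 (e21.1), 3493 against mock, 6 for Renilla against mock, 1 between guide pairs and 6 among guides. Without e12.3 and e21.1 replicate 3 they were 2085 against Renilla, 709 (e12.3), 1878 against mock, 1 between pairs and 3 among guides. Without a filter 1 gene was called for Renilla against mock, 1 between pairs and 2 among guides. With only the groups compared, e12.3 gave 80, e20.1 431 and e21.1 332 genes with 2 of the 10 genes among them, e12.4 gave 7 of the 10, and Renilla against mock 4 genes. With Renilla and mock together 2109 genes were called. Over all groups, same-number libraries did not all deviate together (correlations -0.25 to 0.76, median 0.12, over 45 pairs, and median -0.04 over the 90 other pairs). Yet 17 of 18 libraries correlated best with a library of their own number, although pairs of unlike number are more frequent. This pattern by replicate number was found in the data and is not described in the labels, and the main model leaves it out. Its source was not tested. With a replicate block the 4 guides gave 1809 genes against Renilla, Jak2 passed against mock (limma adjusted p = 0.016), e12.4 gave 7 of the 10, e20.1 989 genes and 5 of the 10, e21.1 1652 genes, and Pim2 passed for the 4 guides (limma adjusted p = 0.041). Leaving out 1 library or guide gave 814 to 1502 genes and 4 to 8 of the 10 against Renilla, 580 to 1273 and 4 to 7 against mock, 252 to 392 genes and 2 of the 10 in each case (e12.3), 491 to 638 and 2 to 3 (e12.4), 400 to 519 and 3 of the 10 in each case (e20.1), 779 to 1026 and 5 to 7 (e21.1), 0 for Renilla against mock, and 0 to 1 between pairs and among guides. The cause of these shifts was not tested. Upper-quartile factors were 0.985 to 1.055. Depth limits Socs1 and Socs3 most.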
